A study of Drosophila melanogaster with 6 samples.

Results

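The anaphase-promoting complex, or cyclosome (APC/C), is a ubiquitin ligase built from many subunits. It attaches ubiquitin chains to securin, to the mitotic cyclins and to other proteins, which the proteasome then degrades, so that sister chromatids separate and cells leave mitosis. A scaffold arm (in flies shtd, ida and others), a catalytic arm that holds mr, and an arm of proteins with tetratricopeptide repeats (Cdc27, Cdc16, Cdc23 and APC7) make up the core. An activator loads the substrates: fzy, the fly Cdc20, acts in mitosis, and fzr, the fly Cdh1, acts at mitotic exit and in G1 and is needed when fly cells switch from mitotic to endoreplication cycles.

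The members are the 10 genes fzy, fzr, APC7, ida, mr, shtd, Cdc27, Cdc16, Cdc23 and APC10, of 11983 genes that the array's annotation names singly. They were chosen by symbol and comprise 8 core subunits and 2 activators. They had 12 probe sets annotated to 1 gene, namely 3 for fzy and 1 for each other gene. A further probe set lists fzr together with another gene and was not used. A probe set is a group of short probes read out as 1 signal.

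Signals came from S2 cells, a Drosophila line derived from embryos that resembles hemocytes, the fly's blood cells, on Affymetrix Drosophila_2 arrays. All 6 samples were treated with double-stranded RNA, which leads to degradation of the matching mRNA (RNAi), and were kept for 5 days. In 3 samples, GFP RNAi, that RNA matched a jellyfish protein as a control; in the other 3, spotted-dick RNAi, it matched spotted-dick, the zinc-finger gene now named pita. The question put to the arrays is how transcript levels differ once spotted-dick is depleted. With 1 RNA named for the gene, its loss and unintended effects of that RNA cannot be told apart.

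As a check of the labels, pita ranged from 269.7 to 335.9 under GFP RNAi and from 25.9 to 46.6 under spotted-dick RNAi. The arrays were unequally bright: the trimmed mean signal (2% left out at each end) ranged from 125.4 to 189.6, and GFP replicates 1 and 2 were the brightest arrays. Values were therefore quantile normalized, which gives each array the same distribution, and each fitted change is on the log2(signal + 16) scale. The arrays were washed on 2 fluidics stations: station 1 washed GFP replicates 1 and 2 with spotted-dick replicate 1, and station 2 washed the remaining arrays. The GFP RNAi arrays were all scanned ahead of the spotted-dick RNAi arrays in 1 session, so the order of scanning cannot be told apart from the treatment. Of 9 hemocyte genes, 7 had a mean signal over 17.4, the 95th percentile over control probe sets for foreign sequences (the foreign-sequence level), among them srp, ush, Hml and the collagen IV genes Col4a1 and vkg; NimC1 and Sr-CI did not. Among the 8 tested, the scavenger receptor gene crq had a change of -0.31 (limma adjusted p = 0.0543). Its groups overlapped as deposited but not after quantile normalization, as for 17.8% of all tested probe sets. The gene vkg had a change of -0.05 (limma adjusted p = 0.658). The peroxidase gene Pxn rose, from 19.5 ± 9.6 to 64 ± 8.2 (SD, n = 3), with a change of 1.39 (limma adjusted p = 0.000423). Its GFP RNAi signals were 30.2, 11.5 and 16.8, and 4 of 6 arrays lay over 17.4. Of 13 markers of other cell types, 9 had a probe set named for them, and 3 of these, elav, brp and bam, lay over the foreign-sequence level. The mean of elav was 101.0 under GFP RNAi and 61.3 under spotted-dick RNAi, with a change of -0.34 (limma adjusted p = 0.388). For brp the change was 0.08 (limma adjusted p = 0.880). Lsp2 had a change of -0.14 (adjusted p = 0.898). The summed signal, as deposited and not scaled, of the 6 tested markers of other cell types was 213.4 to 242.6 under GFP RNAi and 155.4 to 186.1 under spotted-dick RNAi. These sums include elav. For the 8 tested hemocyte genes they were 12365 to 16536 and 11657 to 12525. The median normalized change was 0.07 for the other cell types and -0.01 for the hemocyte genes. The part of other cell types in the results below was not tested.

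Transcripts of 1 core subunit, APC7, fell after spotted-dick RNAi, and those of 1 activator, fzr, rose. The other 8 genes had changes between -0.11 and 0.22 and did not pass the test. In limma, 2 of 11 tested member probe sets passed at a Benjamini-Hochberg adjusted p under 0.05, against 2.03% of all 11261 tested probe sets. In each direction 1 member passed, against 0.604% of all probe sets for a rise and 1.43% for a fall. The fall of APC7 passed with and without scaling between arrays, and the rise of fzr did not pass in the values as deposited. Over 17 alternative settings the call was lost in 4 for APC7 and in 10 for fzr. With dim probe sets kept, or without the intensity trend of the spread, 0 members passed. In the fit without scaling, limma took each spread from probe sets of like signal, not from the probe set's own replicates. In such bulk samples, fewer cells with a transcript and less of it per cell cannot be told apart.

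**Figure D1:**
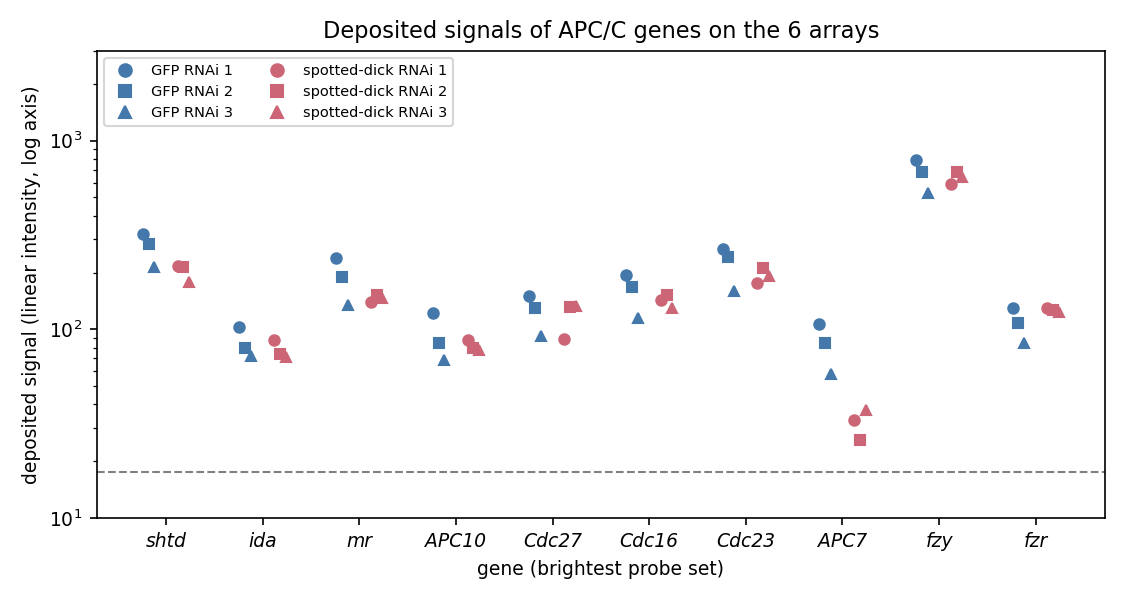
Deposited signal (linear intensity on a log axis) of the brightest probe set of each of the 10 genes on the 6 arrays, with GFP RNAi in blue and spotted-dick RNAi in red. The dashed line is the foreign-sequence 95th percentile of 17.4. APC7 is at 58.1 or above under GFP RNAi and at 37.2 or below under spotted-dick RNAi, while the groups of each other gene overlap.

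Among the tetratricopeptide subunits, APC7 (CG14444) passed the test and Cdc27, Cdc16 and Cdc23 did not. In animals APC7 sits at the outer end of this arm, and flies without it are viable, unlike flies that lack Cdc27 or Cdc16. The deposited APC7 signal was 106.5, 84.5 and 58.1 in GFP RNAi replicates 1 to 3, and 32.9, 25.8 and 37.2 in those of spotted-dick RNAi. Every spotted-dick array lay below every GFP array, and all 6 signals lay above the foreign-sequence level of 17.4. Groups that did not overlap as deposited, in either direction, were found for 14% of all tested probe sets. The mean fell from 83.0 ± 24.2 to 32.0 ± 5.8 (SD, n = 3 and 3).

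After quantile normalization the APC7 level was 6.58, 6.48 and 6.36 under GFP RNAi and 5.67, 5.50 and 5.88 under spotted-dick RNAi, again without overlap. The fitted change was -0.79 ± 0.15 (SE; 95% interval -1.11 to -0.47; limma adjusted p = 0.00892), or 1.73-fold lower in spotted-dick RNAi on the log2(signal + 16) scale. As deposited, without scaling, APC7 changed by -1.02 (limma adjusted p = 0.000593) and was the 1 member of 11 to pass, against 1.24% of all tested probe sets in either direction and 1.15% for a fall. This fit, and that with median centring (limma adjusted p = 0.000257), took the spread from the intensity trend alone. The replicates of APC7 itself did not enter that spread. By size of fall APC7 ranked 44 of 11261 tested probe sets, with pita at rank 8 and Orc4, the origin recognition subunit, at rank 9. Within station 1 the change was -0.86 and within station 2 it was -0.68, each resting on 1 array of 1 group. The call ended without GFP replicate 1 (-0.72, limma adjusted p = 0.0686) and without GFP replicate 2 (-0.78, adjusted p = 0.0585), and also when dim probe sets were kept (adjusted p = 0.119) or the intensity trend of the spread was left out (0.0775); the adjusted p ranged from 0.000257 to 0.119 over 17 alternatives, and the change was negative in each. Its size depended on the pseudocount, at -1.03 with 1 and -0.46 with 64 in place of 16.

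The other tetratricopeptide subunits are built of the same repeats and form the body of the arm. Cdc27, whose protein docks the activators, had deposited signals of 149.9, 129.7 and 91.9 under GFP RNAi and 88.7, 131.0 and 132.7 under spotted-dick RNAi. Its groups overlapped, and spotted-dick replicate 1 lay below all other arrays. The fitted change of Cdc27 was 0.20 (95% interval -0.08 to 0.48, limma adjusted p = 0.589). The change was -0.13 in station 1 and 0.41 in station 2, each resting on 1 array of 1 group. It was 0.35 without spotted-dick replicate 1 and 0.096 without spotted-dick replicate 3. Cdc16 signals were 195.2, 168.0 and 115.4 under GFP RNAi and 143.1, 151.5 and 129.1 under spotted-dick RNAi. Its change of 0.12 (95% interval -0.09 to 0.34) did not pass (limma adjusted p = 0.686). Cdc23 signals were 267.3, 242.3 and 160.4 under GFP RNAi and 176.9, 212.2 and 192.2 under spotted-dick RNAi, and its change of 0.10 (95% interval -0.10 to 0.30) did not pass either (limma adjusted p = 0.736). None of these intervals reaches -0.47, the end of the APC7 interval nearest to 0.

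APC7 was also set against its partners within each array. There a brightness that scales all signals alike enters only through the 16 added to each signal. The arrays did not differ by 1 such factor: the median signal ranged from 12.4 to 15.9, and the trimmed mean from 125.4 to 189.6. The log2 ratio of APC7 to the geometric mean of the other 7 core subunits (signal + 16) was -0.72, -0.76 and -0.82 under GFP RNAi and -1.55, -1.86 and -1.41 under spotted-dick RNAi. It was lower in 3 of 3 spotted-dick arrays than in any GFP array, with a difference of -0.84 between group means, or 1.80-fold. The difference was -1.13 with 1 added to each signal in place of 16 and -0.46 with 64 added. This ratio was chosen after the APC7 values were seen, so it describes the same fall. Its exact two-sided permutation p was 0.1, the smallest possible, and is no separate test of that fall.

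**Figure D2:**
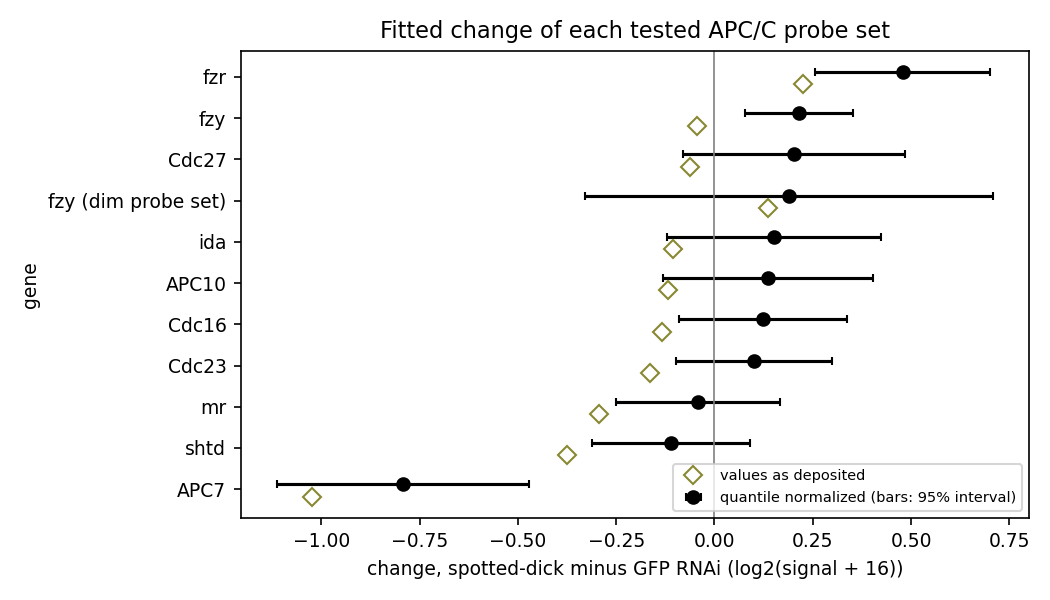
Change of each of the 11 tested probe sets, spotted-dick minus GFP RNAi on the log2(signal + 16) scale. Black points are quantile-normalized values with 95% intervals from limma, and open diamonds are values as deposited. APC7 (-0.79) and fzr (0.48) lie farthest from 0 in the normalized values, and each deposited change lies to the left of the normalized one.

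The scaffold and catalytic subunits did not pass the test. The largest scaffold protein, encoded by shtd (CG9198, the fly APC1), is named for the shattered eye phenotype of its mutants. Its signals were 318.7, 283.0 and 213.1 under GFP RNAi and 217.7, 214.8 and 178.9 under spotted-dick RNAi, overlapping between 213.1 and 217.7. Its normalized change was -0.11 (95% interval -0.31 to 0.09, limma adjusted p = 0.701), and its change as deposited was -0.37 (adjusted p = 0.523). The APC5 gene ida (CG10850) had signals of 103.0, 79.9 and 71.9 under GFP RNAi and 87.2, 74.0 and 70.9 under spotted-dick RNAi, with a change of 0.15 (95% interval -0.12 to 0.42, limma adjusted p = 0.700).

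The cullin-like subunit mr (CG3060, the fly APC2), which with a RING protein forms the catalytic arm, had signals of 237.8, 190.2 and 134.1 under GFP RNAi. In spotted-dick arrays they were 140.3, 152.8 and 145.7, inside the GFP range. The change of mr was -0.04 (95% interval -0.25 to 0.17, limma adjusted p = 0.910). APC10 (CG11419), a substrate co-receptor beside the activator, had signals of 121.9, 84.2 and 69.0 under GFP RNAi and 87.7, 79.1 and 77.3 under spotted-dick RNAi. Its change of 0.14 (95% interval -0.13 to 0.40) did not pass (limma adjusted p = 0.732). For shtd, ida, mr and APC10 these intervals, from 3 arrays a group, leave room for changes up to their ends.

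Of the activators, fzr passed the test and fzy did not. The fzr signal (CG3000) was 129.0, 108.6 and 84.1 in GFP RNAi replicates 1 to 3, and 129.7, 126.8 and 123.0 in those of spotted-dick RNAi. As deposited the groups overlapped, because GFP replicate 1, the brightest array, reached the level of the spotted-dick arrays. After quantile normalization the fzr level was 6.81, 6.79 and 6.81 under GFP RNAi and 7.34, 7.22 and 7.28 under spotted-dick RNAi, without overlap. Its change was 0.48 ± 0.10 (SE, 95% interval 0.26 to 0.70, limma adjusted p = 0.0245), or 1.39-fold higher. The change was 0.54 within station 1 and 0.45 within station 2, each resting on 1 array of 1 group.

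The call of fzr was lost in 10 of 17 alternatives. As deposited it was 0.23 and did not pass (limma adjusted p = 0.628), and with each array centred on its median it was 0.29 (adjusted p = 0.650), while scaling to 9 hybridisation controls gave 0.48 (adjusted p = 0.0425). In the fits as deposited and with median centring, the spread came from the intensity trend alone. The replicate block gave an adjusted p of 0.0652, keeping dim probe sets 0.0761 and leaving out the intensity trend 0.0772. Leaving out any array but spotted-dick replicate 2 ended the call, with adjusted p between 0.0820 and 0.111 and changes from 0.45 to 0.48: without GFP replicates 1, 2 and 3 it was 0.0823, 0.111 and 0.0854, and 0.0820 and 0.0932 without the first and the third spotted-dick replicate. Without spotted-dick replicate 2 it was 0.0310. The suffix of the fzr probe set marks, in Affymetrix naming, probes that several transcripts share, so a share of its signal from another transcript cannot be told apart from fzr.

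Of the 3 fzy probe sets (CG4274) only 1 was bright. Its signal was 787.9, 683.8 and 527.0 under GFP RNAi and 590.4, 680.4 and 643.3 under spotted-dick RNAi, with overlap. The other two fzy probe sets stayed under 17.4 in all 6 arrays; for one of them the change was 0.19 (95% interval -0.33 to 0.71, limma adjusted p = 0.813), and the other was too dim to be tested. In the bright probe set the normalized fzy level was 9.23, 9.28 and 9.27 under GFP RNAi and 9.44, 9.47 and 9.52 under spotted-dick RNAi. These groups did not overlap, as for APC7 and fzr and for 17.8% of all tested probe sets. The change of 0.22 ± 0.06 (SE; 95% interval 0.08 to 0.35) did not pass the adjusted test (limma adjusted p = 0.127; unadjusted p = 0.00446), and as deposited it was -0.04.

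**Figure D3:**
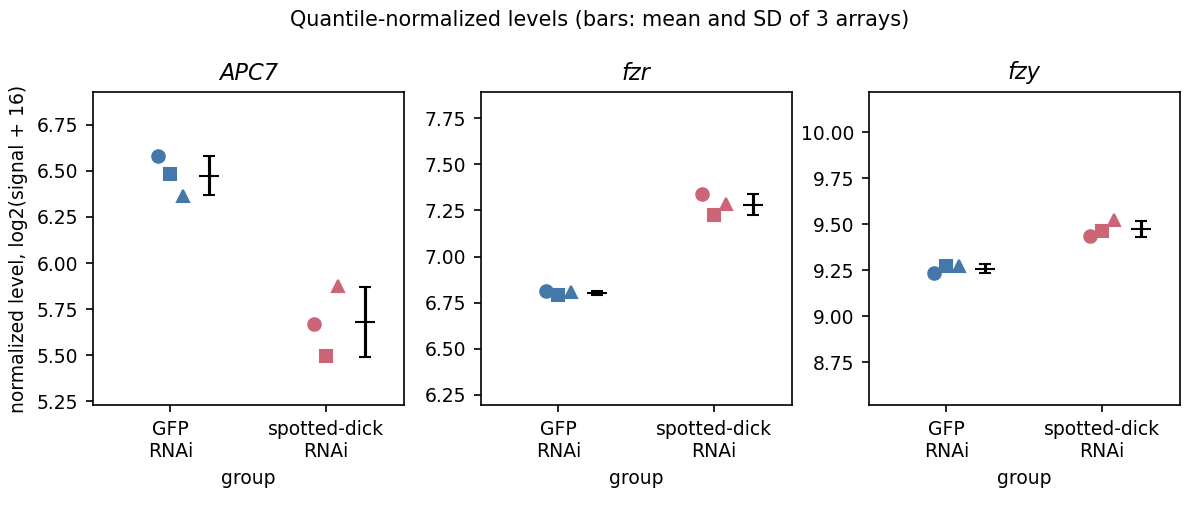
Quantile-normalized levels, log2(signal + 16), of APC7, fzr and the bright fzy probe set, with 1 point per array and the mean and SD of 3 arrays beside them. Each panel spans the same range of log2 units. The groups do not overlap in any panel, and the spotted-dick arrays are lower for APC7 and higher for fzr and fzy.

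The log2 ratio of fzr to fzy was -2.47, -2.49 and -2.44 under GFP RNAi and -2.06, -2.29 and -2.25 under spotted-dick RNAi. These are differences between signals of different probe sets, so only their shift between groups can be read. The ratio was higher in 3 of 3 spotted-dick arrays than in any GFP array, by 0.27 or 1.21-fold. Its exact two-sided permutation p was 0.1, the smallest possible. The shift was 0.42 within station 1 and 0.17 within station 2, each resting on 1 array of 1 group. All ratios of fzr use the fzr signals given above, so they are no separate test of the rise of fzr. Against the geometric mean of the 8 core subunits, fzr shifted by 0.51 (exact two-sided permutation p = 0.1). Without APC7 among them, fzr shifted by 0.40, from -0.48, -0.45 and -0.38 to 0.02, -0.09 and -0.03, a comparison added after the values were seen. These shifts used deposited values, in which a brightness that scales all signals of an array alike enters only through the added 16. With 1 or 64 added instead they were 0.30 and 0.20 against fzy, 0.59 and 0.36 against the core subunits, and 0.45 and 0.31 against the core subunits other than APC7.

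**Figure D4:**
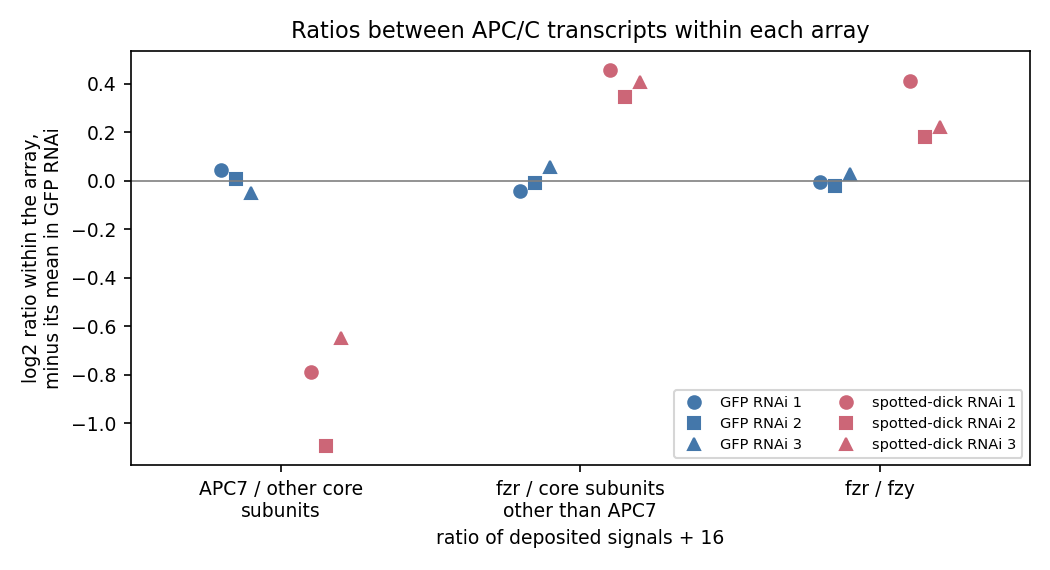
Log2 ratios of deposited signals + 16 within each array, with the mean of the GFP arrays set to 0. The spotted-dick arrays lie below all GFP arrays for APC7 against the other core subunits (difference -0.84). They lie above all GFP arrays for fzr against the core subunits other than APC7 (0.40) and against fzy (0.27).

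Over the 10 genes, each at its brightest probe set, the median change was 0.13, against 0.01 over all tested probe sets. As deposited the median was -0.13, against -0.20 over all tested probe sets. Apart from APC7 and fzr, 6 genes had positive and 2 had negative normalized changes, and as deposited all 8 were negative, from -0.37 to -0.04, as the median of all probe sets was. The SDs of the normalized log2 levels under GFP RNAi were 0.01 for fzr and 0.02 for fzy, against 0.11 for APC7 and 0.13 for APC10.

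Of the other genes of the pathway, 28 of 40 on 5 lists were tested, and 0 passed in limma in either direction, against 2.03% of all tested probe sets after quantile normalization and 1.24% as deposited. The rest were not matched to a probe set annotated to 1 gene, so no signal was read for them. Whether other probe sets on the array measure them was not checked. These unmatched genes are Cdk1, stg, Wee1, Myt1, CycA, geminin, aurA, polo, Nek2, BubR1, lmg and Ube2S. An unadjusted p under 0.05 was found for 3 of the 28, against 12.3% of all tested probe sets. Counts this close to the background say nothing particular about these genes. In the list results here and below, signals are as deposited and changes are quantile normalized. As deposited the medians of the 5 lists were negative, between -0.20 and -0.16, against -0.20 over all tested probe sets. Of the remaining parts of the complex, 4 of 6 were tested. The E2 enzyme vih charges the complex with ubiquitin. Its deposited signal averaged 618.9 ± 97.4 under GFP RNAi and 544.0 ± 26.7 under spotted-dick RNAi (SD, n = 3). The normalized change of vih was 0.10 (limma adjusted p = 0.647), and as deposited it was -0.17. The scaffold subunit APC4 had a change of 0.05 (adjusted p = 0.913). The activator relatives fzr2 and cort, the second a female germline protein, had mean signals of 13.8 to 18.9 under GFP RNAi, near the foreign-sequence level, with changes of -0.33 and 0.26 (adjusted p = 0.700 and 0.704).

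Among 9 tested inhibitors of the complex and spindle checkpoint genes the median change was 0.10. The smallest p-values belonged to Zw10 (0.20, limma adjusted p = 0.295), which brings checkpoint proteins to kinetochores, the checkpoint protein gene Bub3 (0.15, adjusted p = 0.403) and rod, a partner of Zw10 (0.12, adjusted p = 0.686). Rca1, an inhibitor of the fzr form in flies, had a change of -0.07 (adjusted p = 0.839). The 6 tested substrate and separase genes had changes from 0.01 to 0.15, with a median of 0.06. Separase, Sse, had a change of 0.15 (adjusted p = 0.662), the securin gene pim one of 0.11 (0.729), cyclin B, CycB, one of 0.05 (0.807), and Orc1, an APC/C substrate in flies, one of 0.01 (0.977).

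Among 3 tested genes of the Cdk1 module, Cks30A and Cks85A, small Cdk1-binding proteins, had changes of 0.10 and 0.03 (limma adjusted p = 0.759 and 0.951), and the phosphatase gene twe one of -0.03 (0.964). The SCF ligase, the other large ubiquitin ligase of the cell cycle, had 6 tested genes with a median change of 0.07. Its RING subunit gene Roc1a came closest to the threshold, with signals of 72.2 ± 20.6 under GFP RNAi and 82.4 ± 2.1 under spotted-dick RNAi (SD, n = 3) and a change of 0.44 (adjusted p = 0.0984). The adaptor SkpA had a change of -0.10 (adjusted p = 0.488) and the F-box gene Skp2 one of 0.14 (adjusted p = 0.552).

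Genes whose normalized values were most like those of fzr over the 6 arrays were CG7900 (Pearson r = 0.997), ND-B8, a mitochondrial complex I subunit (0.990), and r, an enzyme of pyrimidine synthesis (0.989), with changes of 1.71, 3.75 and 0.97. For fzy they were CG8112 (r = 0.990), Cyp9c1 (0.989) and CG6951 (0.988). For APC7, chosen after its values were seen, they were CG31861 (r = 0.996), CG31436 (0.993) and the mitochondrial protease gene Afg3l2 (0.988), with changes of -0.67, -0.55 and -0.14. These were the highest of many values over only 6 arrays: r exceeded 0.9 for 189, 207 and 162 of 8255 genes against fzr, fzy and APC7, and all points share the arrays and their scaling.

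The protein-coding genes beside APC7 in the RefSeq gene table were also read, a choice made after its values were seen. Pat1 on one side had a change of -0.11 (limma adjusted p = 0.781) and pigs on the other one of -0.11 (adjusted p = 0.650). Beside fzr, Pp2C1 had a change of 0.32 (limma adjusted p = 0.322), and CG3009 on the other side had no tested probe set. None of the tested neighbours named here passed.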

How the data were processed

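The deposited table gives, for every probe set, 1 linear intensity from each array (Drosophila_2, per the file headers); the software that made these values is not given in the sources used here. Groups and replicate numbers came from the sample titles. Labels do not say that replicates are separate cultures, so p-values measure only the spread between these samples. Of 18894 probe sets, 125 controls were left out; 13647 of the other 18769 had 1 annotated gene, 402 several and 4720 none. Gene IDs were matched to RefSeq (13544 probe sets). Background was judged by 100 foreign-sequence controls.

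log2(signal + 16) was quantile normalized, and probe sets under the 40th percentile of the mean were left out. limma 3.58.1 in R 4.3.3 compared spotted-dick with GFP RNAi (lmFit, eBayes with an intensity trend), adjusting over all tested probe sets; the fit was tested on simulated data. A gene with several probe sets was represented by the brightest. The genes named were pita and Orc4, all members, up to 3 genes of each list with the smallest p (APC4, Rca1, Orc1, neighbours, genes like APC7 and further markers were added after values were seen) and the 3 genes most like fzr and fzy. Members, lists and the choice of scaling were made with earlier results of these data known. Alternatives were no scaling, median centring, hybridisation-control scaling, pseudocounts of 1 and 64, no filter or the 60th percentile, no trend, robust estimation, replicate or station as a block, and leaving out each array. Figures used matplotlib 3.10.9.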

Additional observations from a re-analysis of the deposited data

How the results depend on the processing

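Of all tested probe sets 229 passed, 68 higher and 161 lower. As deposited it was 140 (11 higher and 129 lower), with median centring 16 higher and 151 lower, with all dim probe sets kept 126 and without the intensity trend 53; leaving out 1 array gave 115 to 249, with 115 without GFP replicate 2, 145 without GFP replicate 3 and 142 without spotted-dick replicate 3. The count of member probe sets, 2, became 1 as deposited, with median centring and with the replicate block, 0 without the filter or the trend, and 0 to 2 with 1 array left out (0 without GFP replicate 1 or 2). The list genes stayed at 0 in all 17 alternatives. The change of APC7 was -0.79 with adjusted p of 0.119 without the filter and 0.0775 without the trend, -1.03 and -0.46 with pseudocounts of 1 and 64, and -0.90 to -0.69 with 1 array left out. The change of fzr was 0.23 as deposited, 0.29 with median centring and 0.48 without the filter (adjusted p = 0.0761), without the trend (0.0772) and with the replicate block (0.0652), and 0.45 to 0.51 with 1 array left out. The direction turned, as deposited and with median centring, for ida (-0.10 and -0.041), Cdc16 (-0.13 and -0.070), Cdc23 (-0.16 and -0.10) and APC10 (-0.12 and -0.053), as deposited alone for Cdc27 (-0.063) and fzy (-0.045), and without GFP replicate 1 for mr (0.0062, with -0.089 to 0.0062 over the arrays left out); the median of all tested probe sets was -0.20 as deposited and -0.14 with median centring. The ratios kept their direction in all 11 alternatives each; their exact p cannot pass 0.05. The replicate block took same-numbered arrays as pairs, which the labels do not state. In their deviations from the group means, same-numbered arrays correlated at -0.06, -0.03 and 0.05. For differently numbered arrays the values ran from -0.06 to 0.10, so they cannot tell whether arrays were paired. With the replicate block 199 probe sets passed and APC7 did too (limma adjusted p = 0.0292). For changes that lost their call the cause was not tested. Fits that left 1 array out also had fewer arrays.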
